A study of Homo sapiens with 24 samples.

Results

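The genes described here encode the proteasome: the protein-coding rows of the count table whose symbol starts with PSMA, PSMB, PSMC, PSMD, PSME, PSMF or PSMG followed by a digit. The rule found 49 genes of the 58735 in the table, and 47 of them were among the 15956 genes with enough reads to test. PSMA8, a form of the alpha ring known from testis, had 0 counts in all 24 libraries, and PSMB11, a form of the beta ring known from thymus, had 1 count in all, so neither was tested. PSMC3IP was caught by its name only: it encodes a partner protein in meiotic recombination, not a proteasome subunit. It is in no group by role, but it is 1 of the 47 and enters their counts, medians and correlations. It is named wherever it was called.

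The libraries came from SAS, an established human oral squamous cell carcinoma line, carrying either wild-type NRF2 (WT) or NRF2 with the E79Q substitution (E79Q). NRF2 (gene NFE2L2) switches on the oxidative stress response, and E79Q lies in the part of the protein that its repressor KEAP1 binds. Cells of each genotype were left as controls, given the glutaminase inhibitor CB-839 at 0.1 µM, given X-rays at 4 Gy (RT), or given both. With both, CB-839 was given for 24 h and then 4 Gy. This makes 8 groups of 3 libraries. A pretreatment of 24 h is listed for every library, controls and RT alone included. The series text describes 4 irradiated groups with RNA taken 24 h after radiation, while the labels list 24 libraries in 8 groups, so the harvest time of the unirradiated cells is not given. How the E79Q cells were made, and whether they are 1 clone, is not given in the sources used here. Nor is it said whether the 3 libraries of a group came from separate cultures, and p-values then measure only the spread between these libraries.

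The proteasome is the cell's main machine for breaking down proteins marked with ubiquitin. Its 20S core is a barrel of outer alpha rings (PSMA genes) and inner beta rings (PSMB genes), in which PSMB5, PSMB6 and PSMB7 carry the protein-cutting sites. Interferon induces PSMB8, PSMB9 and PSMB10, which take the places of PSMB5, PSMB6 and PSMB7 to form the immunoproteasome. The 19S cap recognises ubiquitin and unfolds the substrate with a ring of ATPases (PSMC genes) inside a frame of other subunits (PSMD genes), while the PSMD5, PSMD9, PSMD10 and PSMG products help assembly and the PSME products are alternative caps. NRF1, encoded by NFE2L1, raises proteasome genes when the proteasome is inhibited, through antioxidant response elements (AREs) that NRF2 can also bind.

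Total counts ranged from 14285084 to 23640197 per library, and proteasome genes took between 0.697% and 0.788% of them. Levels are given as CPM, a count divided by its library's TMM-scaled total, and fold changes as log2 values from edgeR's quasi-likelihood test over all 15956 genes, in which a gene counts as changed when its Benjamini-Hochberg adjusted p is under 0.05. The squamous markers summed to between 1860 and 3220 CPM, with 3160 to 3220 in untreated WT and 2040 to 2100 in untreated E79Q. Over all treatments WT libraries stood at 2490 or more and E79Q libraries at 2320 or less. Of markers of other cells, CD3E and DCN were at 0 in 23 libraries and PTPRC in 22, while CD74 (7.13 to 22.9 CPM), VWF (1.28 to 4.21), CD14 (0.197 to 3.51) and PDGFRA (0.0518 to 0.831) had reads in all 24. Genes with much GC stood above their group's mean in 4 libraries, with correlations across genes of 0.17, 0.19, 0.26 and 0.49: E79Q replicate 1, WT with CB-839 replicate 3, WT with RT and CB-839 replicate 1, and E79Q with RT and CB-839 replicate 2. In the other direction, E79Q with RT and CB-839 replicate 1 stood at -0.39. Replicate 3 of that group and WT with RT and CB-839 replicate 2 stood at -0.17. These stay in the fits below that leave out the 4 libraries, so such fits are not free of GC shifts.

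Promoter sequence was looked at because NRF2 and NRF1 act through AREs and interferon through its own elements. Of the 49 genes, 43 had RefSeq promoters (build GRCh38.p14), and the 250 bases before each start were searched on both strands. The ARE core TGACNNNGC was found in 13 of the 43 genes (30.2%), beside 14.7% of 15843 protein-coding genes. The following windows, written 5′ to 3′ on the gene's strand, show the ARE core (or its reverse complement) in capitals for genes that the results below turn on.
PSMB3: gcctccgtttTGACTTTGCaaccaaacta
PSMD3: tcccctttgtTGACTCGGCcatcggcctg
PSMC5: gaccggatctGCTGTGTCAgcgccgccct
PSMB9: gggcggggctGCCTCGTCActtgtctcgg
PSME1: atggcagggcTGACCCCGCctcctccatc
These lie at chr17:38752627-38752655 (plus strand), chr17:39980760-39980788 (plus strand), chr17:63827654-63827682 (plus strand), chr6:32854034-32854062 (plus strand) and chr14:24136098-24136126 (plus strand). The interferon-stimulated element (GAAA, any 2 bases, GAAA) was found in 5 of the 43 genes (11.6%), beside 3.6% of all protein-coding genes. The same 10 letters stood in PSMB10, PSME2 and PSMG4, here in capitals, and these windows are shown because the letters are shared. The other carriers, PSMA4 and PSMB4, hold other letters in the middle, and the calls of all 5 carriers are given with radiation.
PSMB10: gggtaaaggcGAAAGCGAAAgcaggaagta
PSME2: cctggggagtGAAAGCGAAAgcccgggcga
PSMG4: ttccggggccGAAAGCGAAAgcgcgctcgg
They lie at chr16:67936852-67936881 (minus strand), chr14:24146619-24146648 (minus strand) and chr6:3258904-3258933 (plus strand). Another interferon element, GAS (TTC, any 3 bases, GAA), was found in 7 of the 43 genes (16.3%), beside 7.89% of all protein-coding genes. The 7 include PSMA8, which was not tested. A match of letters is a description of the window and not a measured binding site.

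Per kilobase of exon, the levels of genes whose products sit in 1 particle in equal number spread widely. The length used is that of all annotated exons of a gene together, such as 6506 bp for PSMA6 and 1750 bp for PSMA7. It is not the length of the transcripts these cells express, so levels per kb depend on the annotation. Its part in the spread was not tested. PSMA7, an alpha subunit, stood highest at 248.9 CPM per kb as a mean over the 8 groups, followed by PSMD2, a large scaffold of the 19S base, at 195 and PSMB3, a beta subunit without a cutting site, at 175.9. The 7 constitutive beta genes had a median level of 120.4 CPM per kb and lay between 69 (PSMB2) and 175.9. The 7 alpha genes had a median level of 18.5, the 6 ATPases 33.9 and the 11 other 19S subunits 35.1. The 3 immunoproteasome genes were far lower, with PSMB8 at 13.3, PSMB9 at 4.39 and PSMB10 at 2.67 CPM per kb.

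PSMA6 at 0.758, PSMA2 at 0.763 and PSMD9 at 1.39 CPM per kb were the lowest of the tested genes. In the annotation 14.13% of PSMA6's exon bases and 34.63% of PSMA2's also belong to other genes, and so do 24.66% of PSMA1's, 34.75% of PSMB10's and 22.65% of PSMD9's. PSMC1 shares 75.82% of its exon bases with NRDE2 on the opposite strand. How reads on shared bases were counted, and whether by strand, is not given in the sources used here, so the levels of these 6 genes are uncertain. Overlaps with opposite-strand genes also touch PSMD7 (30.73% of exon bases, with AC009120.2), PSMC3IP (29.93%, with MLX), PSMB8 (20.62%, with PSMB8-AS1 and PSMB9), PSMC5 (19.47%, with FTSJ3), PSMG2 (16.69%) and PSMG4 (14.99%), whose values carry the same doubt to the extent of the shared bases, and 12 further genes share 10.78% or less. By contrast, PSMD2 at chr3:184298709-184309054, PSMD3 at chr17:39980797-39997960 and PSMB3 at chr17:38752736-38764231 (GENCODE 29, GRCh38, whole genes on the plus strand) share none. Expression of each gene moved little between groups: the highest group mean was 1.07 times the lowest for PSMB1 and 1.69 times for PSMB9, the widest range of the 47.

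**Figure D1:**
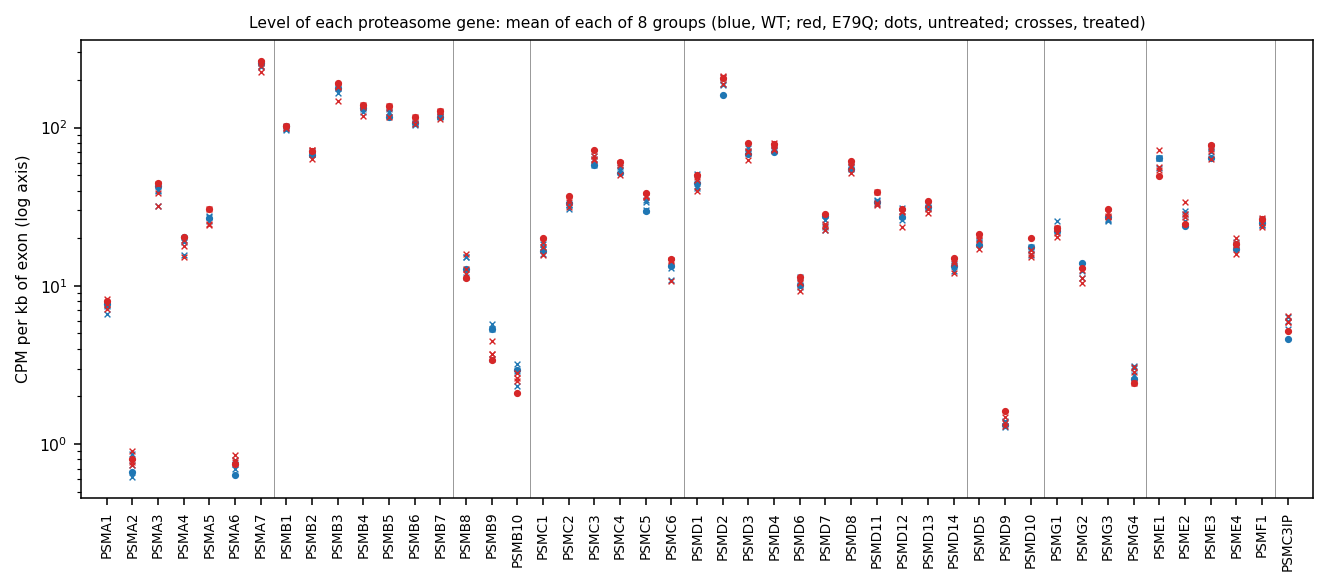
Level of each of the 47 tested genes in CPM per kilobase of exon on a log axis, 1 point per group mean (blue, WT; red, E79Q; dots, untreated; crosses, treated), ordered by role. The constitutive beta genes sit together near their median of 120.4, the alpha genes run from 0.758 (PSMA6) to 248.9 (PSMA7), and the 3 immunoproteasome genes lie at 13.3 or lower.

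**Figure D2:**
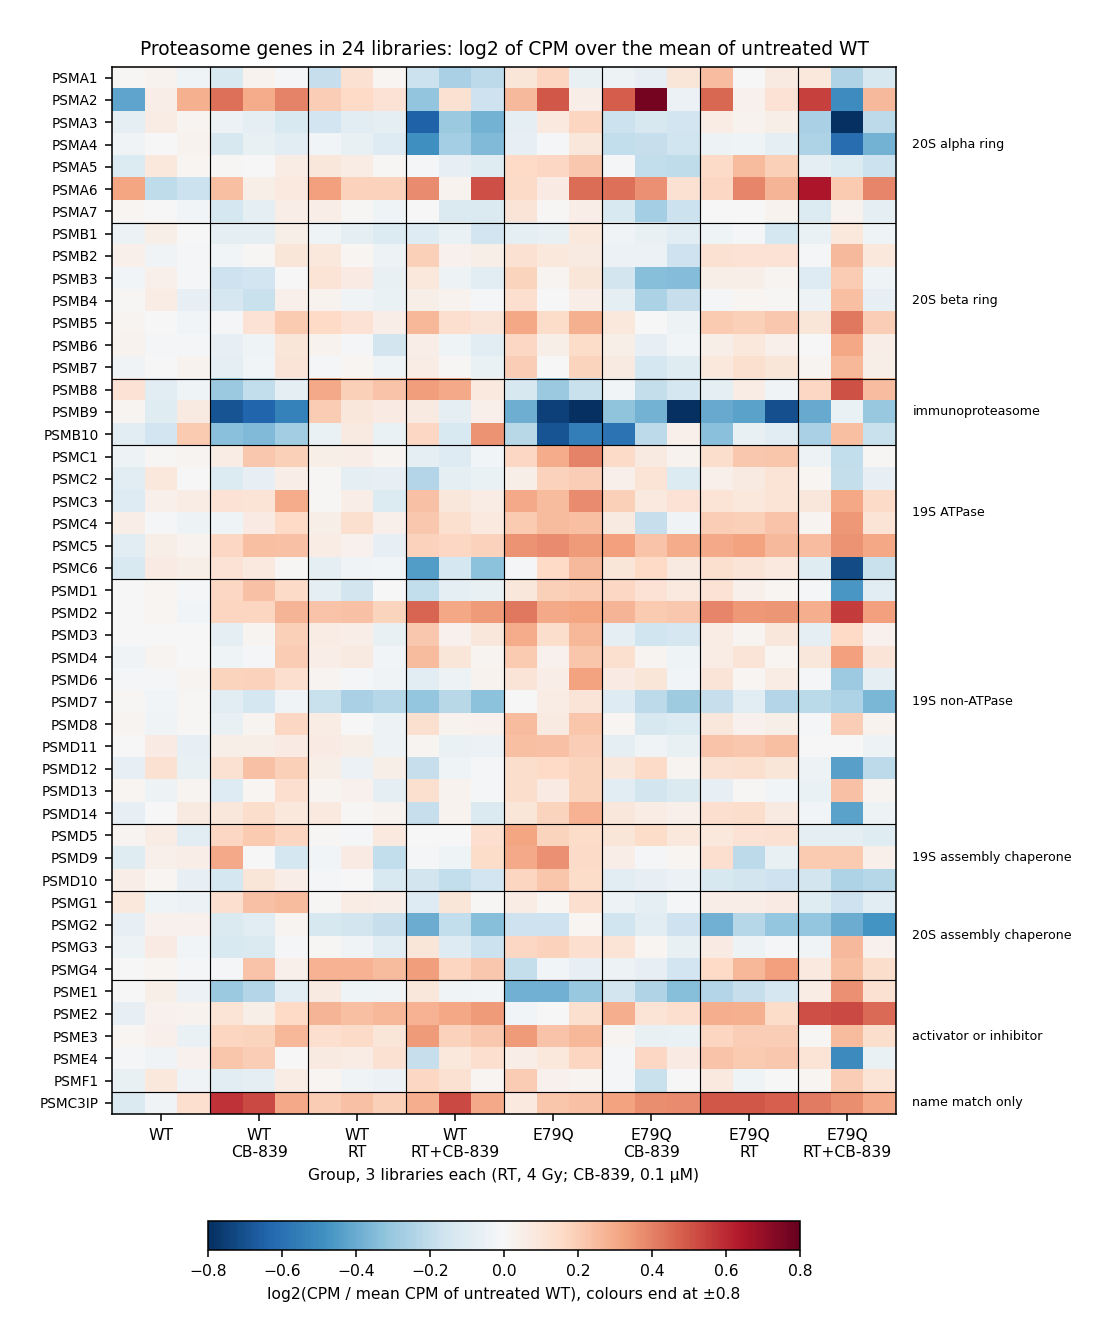
Level of each gene in each of the 24 libraries, as log2 of CPM over the mean of untreated WT (blue, lower; red, higher; colours end at 0.8 either way). In untreated E79Q most 19S rows are red while PSMB9, PSMB10 and PSME1 are blue, and 1 library of E79Q with RT and CB-839 shows blue for PSMA3, PSMC6, PSMD12 and PSMD14.

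Without treatment, 8 of the 17 subunits of the 19S cap were higher in E79Q than in WT cells and 0 lower, beside 9.62% of all genes called higher and 10.1% lower. The other 9 did not pass the test, among them PSMD7 at 0.06 (log2, adjusted p = 0.581) and PSMC6 at 0.14 (adjusted p = 0.365, edgeR). PSMD2 had 881.2, 892.1 and 868.8 CPM in the WT libraries and 1180, 1086.2 and 1095.9 in E79Q. Every E79Q library was above every WT library, and the log2 change was 0.35 (SE 0.055, adjusted p = 2.84e-05). PSMC5, a 19S ATPase, had 126.9, 139.1 and 137.2 CPM in WT and 172.3, 174.7 and 170 in E79Q, again with no overlap, a log2 change of 0.36 (SE 0.05, adjusted p = 4.42e-06). PSME3, which forms the nuclear cap PA28 gamma, went from 331.3 ± 11.2 CPM (SD, n = 3) in WT to 401.7 ± 15.6 in E79Q, a log2 fold change of 0.28.

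In all, 13 of the 47 genes were higher and 2 lower, with a median log2 fold change of 0.146, beside -0.007 over all genes. Over all 15956 genes 19.7% were called either way, 9.62% higher and 10.1% lower. By role, 4 of the 6 ATPases were higher (PSMC5, PSMC3 by 0.31, PSMC1 by 0.29 and PSMC4 by 0.24), and the other ATPases had positive values. So were 4 of the 11 other 19S subunits: PSMD2, PSMD3 by 0.24, PSMD11 by 0.22 and PSMD8 by 0.18 on the log2 scale. Of the 19S assembly chaperones PSMD5 (0.22) and PSMD10 (0.18) passed the test. In the 20S core only PSMA5 (0.18) and PSMB5 (0.25), which carries the chymotrypsin-like site, passed, and none of the 4 core assembly chaperones did. Their values ran from -0.10 to 0.16.

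The median deviation of the 17 subunits of the 19S particle from untreated WT ran from 0.17 to 0.24 (log2) over the 3 untreated E79Q libraries, and that of the 14 constitutive 20S subunits from 0.06 to 0.15. The untreated WT libraries lay between -0.02 and 0.02, but they are set against their own mean and so lie near 0 by construction. Some other groups spread more: the 20S median ran from -0.07 to 0.06 in WT with CB-839. In E79Q with RT and CB-839 it ran from -0.03 to 0.15. Of the 13 genes with an ARE core, 3 were higher (PSMC5, PSMD3 and PSMD5) and 2 lower (PSMB9 and PSME1), with a median log2 fold change of 0.10. Of the 28 tested genes whose promoter held none, 10 were higher and 0 lower, with a median of 0.18. Of the 6 tested genes with GAS, 4 were higher and 0 lower, with a median of 0.24. Of the 35 tested genes whose promoter held no GAS, 9 were higher and 2 lower, with a median of 0.14. Over all genes 9.62% were called higher and 10.1% lower.

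The 2 genes that stood lower in untreated E79Q were PSMB9 and PSME1. PSMB9, the inducible counterpart of PSMB6, had 16.5, 15.2 and 17.1 CPM in WT and 12.4, 9.7 and 9.28 in E79Q. The groups did not overlap, and the log2 change was -0.64 (SE 0.13, adjusted p = 0.00064). PSME1, which encodes the alpha subunit of the interferon-induced cap PA28, had 113.2, 117.6 and 110.1 CPM in WT and 87, 87.1 and 91.9 in E79Q, a log2 change of -0.36 (SE 0.07, adjusted p = 0.000451). PSMB10 had a log2 fold change of -0.47 and PSMB8 of -0.20, and neither passed the test (adjusted p = 0.0589 and 0.121, edgeR).

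The calls of PSMB9, PSMC1, PSMC3, PSMC5, PSMD11, PSMD2, PSME1 and PSME3 in this comparison held in every alternative that was run, including each library left out in turn. PSMC4, PSMD8 and PSMD10 each lost theirs on leaving out any of 4 or 5 of the 6 libraries, PSMA5 without WT replicate 1 or E79Q replicate 3, PSMD5 without WT replicate 3 or E79Q replicate 1, and PSMB5 and PSMD3 without E79Q replicate 1. Without the 4 libraries that followed GC content 23 genes were higher and 4 lower, and with GC and length trends removed 23 were higher and 3 lower.

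CB-839 blocks glutaminase, which turns glutamine into glutamate. In E79Q cells 18 of the 47 genes were lower with it and 0 higher, beside 19.8% of all genes called either way, 9.44% higher and 10.4% lower. DESeq2 and limma-voom also called 18 lower and 0 higher, and at an unadjusted p under 0.05 there were 21 lower and 1 higher. The median log2 fold change was -0.13, beside 0.021 over all genes.

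PSMD3, a 19S subunit, had 415.8, 373.8 and 408 CPM in untreated E79Q and 322.1, 303.9 and 308.8 with CB-839. The groups did not overlap, and the log2 change was -0.36 (SE 0.063, adjusted p = 0.000148). PSMB3 had 237.8, 212.9 and 224.4 CPM without and 190.1, 165.8 and 165.3 with the drug, a log2 change of -0.37 (SE 0.072, adjusted p = 0.000376). For PSMD11, a 19S lid subunit, the libraries stood at 286.6, 285.2 and 278.2 CPM without and 230.4, 238 and 233.3 with CB-839, a log2 change of -0.28 (SE 0.044, adjusted p = 4.29e-05). All 3 of these genes were lower in every treated library than in every untreated one.

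Decreases were called in most constitutive roles, but in none of the 4 core assembly chaperones, whose values ran from -0.14 to 0 (log2). Among the beta genes 5 of 7 fell (PSMB2, PSMB3, PSMB4, PSMB5 and PSMB7), among the alpha genes 3 of 7 (PSMA4, PSMA5 and PSMA7), among the ATPases 3 of 6 (PSMC1, PSMC3 and PSMC4) and among the other 19S subunits 5 of 11 (PSMD3, PSMD7, PSMD8, PSMD11 and PSMD13). PSMD10, the assembly chaperone known as gankyrin, fell by 0.25 and PSME3 by 0.31 on the log2 scale. The 3 immunoproteasome genes did not pass the test and had values of 0.08 (PSMB8), 0.11 (PSMB9) and 0.26 (PSMB10).

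PSMA5, PSMA7, PSMB3, PSMD10, PSMD11, PSMD13, PSMD3, PSMD7, PSMD8 and PSME3 kept their call in every alternative. The count fell to 11 without E79Q with CB-839 replicate 2, and to 11 without E79Q with CB-839 replicate 3. With GC and length trends removed it was 26 lower and 2 higher.

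In WT cells the same dose gave a different set of values. The test called 6 genes higher and 2 lower, beside 14.8% of all genes called either way, 6.35% higher and 8.44% lower. PSMC5 had 126.9, 139.1 and 137.2 CPM without and 150.7, 158.5 and 157.8 with CB-839, a log2 change of 0.21 (SE 0.05, adjusted p = 0.00365) with no overlap between the groups. PSMD2 and the core chaperone PSMG1 were higher by 0.21, PSME3 by 0.20 and PSMD5 by 0.18, and PSMC3IP by 0.48. PSMB9 dropped from 16.3 ± 0.962 to 10.6 ± 0.562 CPM (SD, n = 3), a log2 change of -0.62 (SE 0.13, adjusted p = 0.00119), and PSME1 by 0.20 on the log2 scale (adjusted p = 0.0498). The calls of PSMB9, PSMC3IP and PSMC5 held in every alternative, while PSME1's did not pass with RLE scaling, with no filter, with a replicate block or in DESeq2. The count fell to 3 without WT replicate 3, to 5 without WT with CB-839 replicate 2 and to 4 without WT with CB-839 replicate 3, and it rose to 16 without the 4 libraries that followed GC content. The increases of PSMD2 and PSME3 lost their calls without WT replicate 3 or WT with CB-839 replicate 3, and those of PSMD5 and PSMG1 without either of these or further libraries.

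The difference between the genotypes in the effect of CB-839 was tested directly, as an interaction. It was negative for 14 genes and positive for 2, beside 14.3% of all genes called either way, 6.83% negative and 7.46% positive, with a median of -0.208 over the 47 genes and 0.031 over all genes. PSME3 showed the difference most clearly: its WT libraries went from 334.6, 340.3 and 318.8 CPM to 372.5, 375 and 397.6 with CB-839, and its E79Q libraries from 418.7, 388.1 and 398.2 to 336.7, 317.2 and 319. It rose in WT and fell in E79Q, and the difference was -0.51 (SE 0.077, adjusted p = 3.09e-05). The difference was -0.41 for PSMD3, -0.36 for PSMC1 and PSMC3, -0.34 for PSMC4, PSMA5 and PSMB5, -0.33 for PSMD11 and -0.32 for PSMD2 and PSMG1. PSMB9 went the other way, with a difference of 0.73 (SE 0.19, adjusted p = 0.00885), and so did PSME1 with 0.32. All 11 of the 11 non-ATPase 19S subunits and all 6 ATPases had negative values, of which 5 and 4 passed the test.

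The comparison of untreated genotypes and the effects of CB-839 share the untreated libraries, so a high or low untreated library enters each of them. Side by side, PSME3 stood at 0.28 (E79Q over WT), 0.20 (CB-839 in WT) and -0.31 (CB-839 in E79Q), PSMD2 at 0.35, 0.21 and -0.12, and PSMB9 at -0.64, -0.62 and 0.11, all on the log2 scale. The last PSMD2 and PSMB9 values did not pass the test. Counts of the interaction ranged from 13 to 17 genes on leaving out a library, and PSMA5, PSMB9, PSMC1, PSMC3, PSMC5, PSMD11, PSMD2, PSMD3, PSMD5, PSME3 and PSMG1 were called in every alternative. PSMD6, PSMD8 and PSME1 lost their calls in 6, 6 and 8 of the 12 fits that left out a library.

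**Figure D3:**
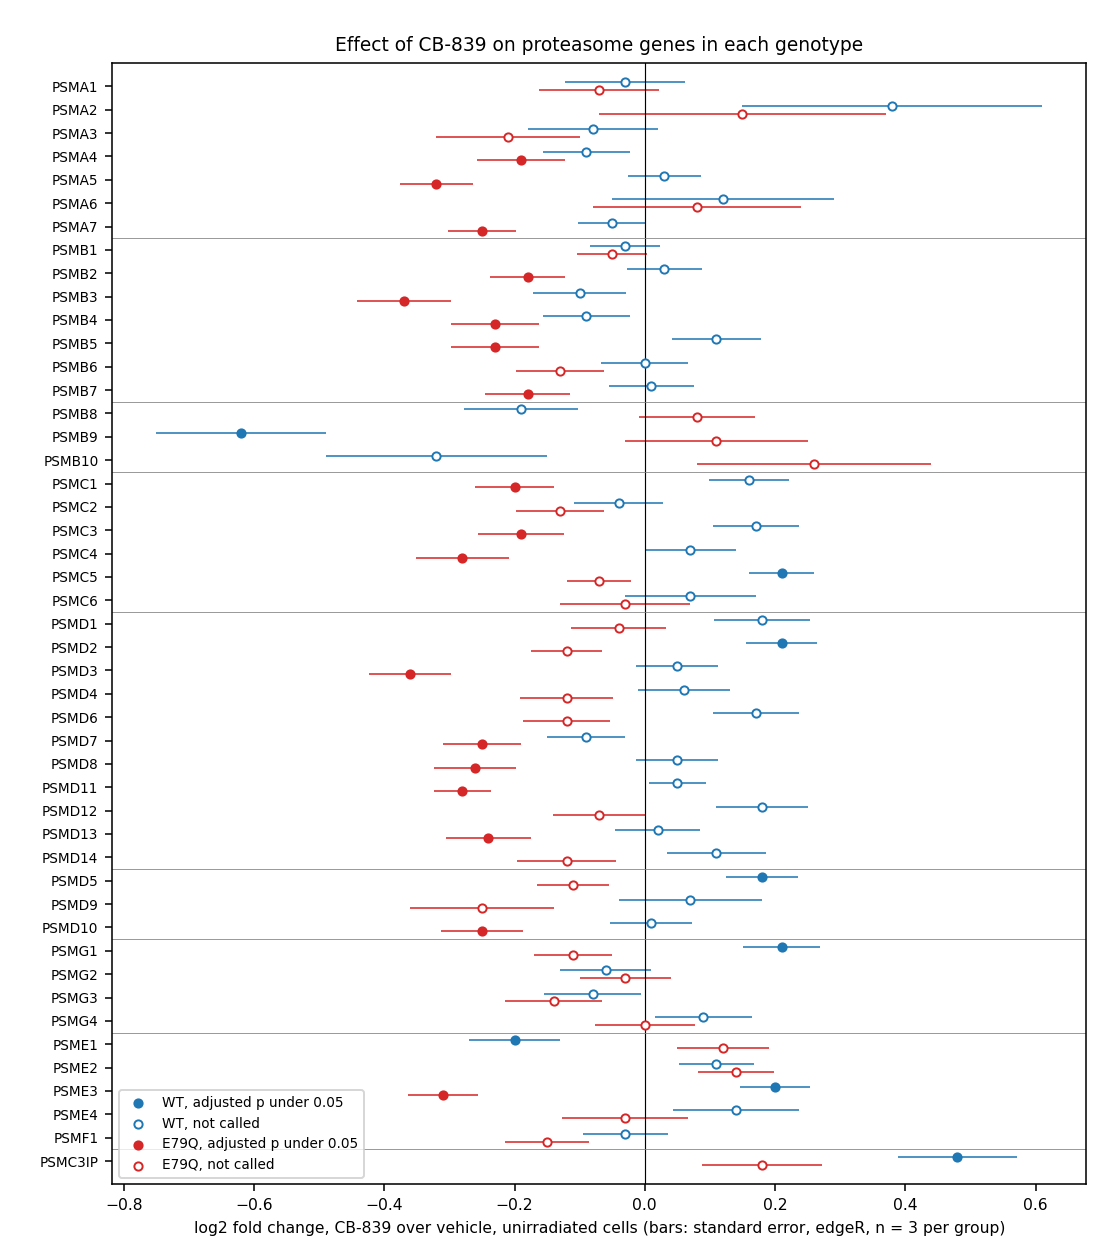
Log2 fold change of each gene with CB-839 over control in unirradiated cells, in WT (blue) and E79Q (red). Bars are standard errors from edgeR (n = 3 per group), and filled points have an adjusted p under 0.05. Most 19S genes lie right of 0 in WT and left of 0 in E79Q, with PSME3 at 0.20 and -0.31, while PSMB9 lies at -0.62 in WT and 0.11 in E79Q.

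Between the genotypes under CB-839, 0 genes were higher in E79Q and 3 lower, beside 15.0% of all genes called either way, 8.30% higher and 6.72% lower: PSMG1 (-0.25), PSME3 (-0.24) and PSMA5 (-0.16). DESeq2 called 6 lower and 0 higher, limma-voom 3 and 0, and at an unadjusted p under 0.05 there were 9 lower and 0 higher. In irradiated cells 3 genes were higher in E79Q and 1 lower, beside 9.64% of all genes either way, 4.69% higher and 4.95% lower. PSMC5 had 140, 137.6 and 128.7 CPM in irradiated WT and 165.7, 167.8 and 160.6 in irradiated E79Q, a log2 fold change of 0.28, and PSMD11 was higher by 0.20 and PSMC3IP by 0.28. PSMB9 was again the low one, at 18.7, 17.3 and 17 CPM in WT and 12.3, 12.1 and 10 in E79Q, with no overlap and a log2 change of -0.62 (SE 0.13, adjusted p = 0.000998). Of these 4 calls, those of PSMB9 and PSMC5 held in every alternative. Without WT with RT replicate 3 the count was 2, and it was 17 in a fit of the compared groups alone and 14 without the 4 libraries that followed GC content. With both treatments 1 gene was called, PSME2 (0.19, adjusted p = 0.0418), beside 7.26% of all genes either way, 4.40% higher and 2.86% lower. It lost that call on leaving out any 1 of the 6 libraries.

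Radiation alone was compared with no treatment in each genotype. In WT cells 3 of the 47 genes were higher and 1 lower, beside 17.9% of all genes called either way, 9.41% higher and 8.49% lower. PSME2, the beta subunit of PA28, had 81.8, 87.8 and 87.1 CPM without and 103.2, 101.1 and 102.8 after 4 Gy, a log2 change of 0.26 (SE 0.058, adjusted p = 0.00196) with no overlap. PSMG4, a core chaperone, was higher by 0.27 and PSMD2 by 0.22, and PSMD7, a subunit of the lid, fell by 0.22 on the log2 scale. In E79Q cells 3 were higher and 6 lower, in all 9 of 47, a share near the 22.3% of all genes called either way (12.2% higher and 10.1% lower). PSMG4 rose by 0.35 (adjusted p = 0.00111), PSMC3IP by 0.32 and PSME2 by 0.21 on the log2 scale.

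PSMD10 had 48.9, 50.5 and 48.1 CPM in untreated and 39.6, 39.2 and 38.6 in irradiated E79Q, a log2 change of -0.33 (SE 0.063, adjusted p = 0.000312). The 2 groups lay well apart. PSMD9, PSMD7, PSMC3, PSMG2 and PSMD3 fell by 0.31, 0.22, 0.21, 0.20 and 0.18 on the log2 scale. The count of 9 was 5 without E79Q replicate 1 and 5 without E79Q with RT replicate 2, and it was 15 both in a fit of the compared groups alone and with GC and length trends removed. PSMD10, PSMD7 and PSMG4 were called in every alternative. PSME2 lost its call in E79Q on leaving out any of 4 libraries, and in WT its call and that of PSMD2 held in every alternative. The genotypes' radiation effects differed for 0 of the 47 genes without the drug (beside 1.26% of all genes) and for 0 with it (1.08%), by edgeR, DESeq2 and limma-voom alike, with 5 and 3 at an unadjusted p under 0.05. These counts do not show that the effects were equal.

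Radiation was also compared in the presence of CB-839, and whether its effect differed from that without the drug was not tested. In WT cells 6 were higher and 11 lower, beside 23.7% of all genes called either way, 13.2% higher and 10.4% lower. In E79Q cells 14 were higher and 7 lower, beside 29.2% either way, 15.3% higher and 13.9% lower. A fit of the compared groups alone called 3 in E79Q with CB-839, fewer than the 15 it called without the drug. PSMC6, a 19S ATPase, had 108.7, 105.9 and 100.9 CPM in WT with CB-839 and 73.4, 90.8 and 79.8 after radiation, a log2 change of -0.37 (SE 0.1, adjusted p = 0.00804). In E79Q it went from 107.4, 112.2 and 105.6 to 93.6, 61.1 and 88.5 CPM, a log2 change of -0.42 (SE 0.1, adjusted p = 0.00266). The lowest value in each irradiated group came from a library that followed GC content. PSMD12 (-0.25 and -0.31), PSMD1 (-0.29 and -0.29), PSMA4 (-0.28 and -0.23) and PSMG2 (-0.25 and -0.26) fell in both genotypes, in the order WT and E79Q, and PSMA3 had values of -0.35 and -0.27, of which only the first passed.

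In E79Q with CB-839, 5 of the 7 beta genes rose with radiation: PSMB3 by 0.30, PSMB5 by 0.23, PSMB4 by 0.22, PSMB2 by 0.20 and PSMB7 by 0.17 on the log2 scale. PSMB3 had 190.1, 165.8 and 165.3 CPM before and 195.7, 242 and 205 after, the highest in replicate 2, the library that followed GC content most. Without that library PSMB2, PSMB4, PSMB5 and PSMB7 lost their calls (adjusted p = 0.101, 0.153, 0.12 and 0.317, edgeR) and PSMB3 kept its own. In a fit of the compared groups alone all 5 lost theirs. Without the 4 libraries that followed GC content PSMB4 and PSMB7 lost theirs. With GC and length trends removed all 5 kept theirs, at 0.30 (PSMB2), 0.22 (PSMB3), 0.19 (PSMB4), 0.13 (PSMB5) and 0.15 (PSMB7). The comparison of CB-839 with no treatment in E79Q shares the E79Q libraries with CB-839. Side by side, PSMB3 stood at -0.37 there and at 0.30 here, and PSMB5 at -0.23 and 0.23.

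Of the 5 genes with the interferon-stimulated element, radiation gave 2 higher and 0 lower in WT (PSME2 and PSMG4), the same 2 higher and 0 lower in E79Q, 2 higher and 1 lower in WT with CB-839, and 3 higher and 1 lower in E79Q with CB-839. The lower one was PSMA4 in both. Over all genes 9.41%, 12.2%, 13.2% and 15.3% were called higher and 8.49%, 10.1%, 10.4% and 13.9% lower in these comparisons. Of the 36 tested genes whose promoter held none, 1, 1, 4 and 10 were higher and 1, 6, 10 and 6 lower, in the same order. Of the 6 tested genes with GAS, 0, 0, 1 and 4 were higher and 0, 1, 0 and 0 lower. Of the 35 whose promoter held no GAS, 3, 3, 5 and 9 were higher and 1, 5, 11 and 7 lower.

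Within these comparisons the fold changes ran with GC content. GC content was taken as the mean over a gene's annotated transcripts, weighted by length. Across the 47 genes its correlation with log2 fold change was 0.66 for radiation in WT with CB-839 and 0.73 in E79Q with CB-839. The correlation was 0.66 and 0.68 for CB-839 in irradiated WT and E79Q. Over all tested genes the correlation was also positive, at 0.21, 0.33, 0.2 and 0.3 in the same order. For the other pairwise comparisons the correlation across the 47 genes lay between -0.24 and 0.17. The genes share libraries and the correlation is a description across genes, which are not replicates. PSMC6, PSMD12 and PSMD14 have transcripts of 39.43%, 39.58% and 36.88% GC, and PSME1 and PSMB8, which rose, 52.39% and 53.71%.

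With GC and length trends removed, the correlations across the 47 genes became 0.31, 0.06, 0.08 and 0.10. PSMC6, PSMD12, PSMA4 and PSMD14 then had values of -0.13, -0.03, -0.01 and 0.15 for radiation in E79Q with CB-839 and lost their calls. PSMD5 (-0.03), PSMC4 (0.07) and PSMD2 (0.08) lost theirs too, while PSMA5 (0.28) and PSMB1 (0.21) were newly called. In all, 14 were then called higher and 2 lower. In WT with CB-839 the values of PSMC6, PSMA4 and PSMD1 became -0.20, -0.16 and -0.21, and these genes kept their calls. There 5 genes were called higher and 9 lower, among them PSMC3 (-0.12), which was not called before. Leaving out a single library also decided the counts. In WT with CB-839 the count of 17 went to 6 without WT with RT and CB-839 replicate 1, to 11 without WT with CB-839 replicate 1 and to 9 without WT with CB-839 replicate 2. In E79Q with CB-839 the count of 21 went to 9 without E79Q with RT and CB-839 replicate 2, to 12 without E79Q with CB-839 replicate 2 and to 11 without E79Q with CB-839 replicate 3. Genes called in every alternative were PSMA4, PSMB8, PSMB9 and PSMD1 in WT and PSMB8, PSME1 and PSME2 in E79Q.

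CB-839 in irradiated cells gave 1 gene higher and 2 lower in WT, beside 9.53% of all genes either way, 4.99% higher and 4.53% lower. In E79Q it gave 3 higher and 13 lower, beside 26.0% either way, 12.9% higher and 13.1% lower. In WT these were PSMC5 (0.17), PSMA3 (-0.33) and PSMA4 (-0.31), of which PSMA4 was called in every alternative. The count was 1 without WT with RT replicate 2 or 3, or without WT with RT and CB-839 replicate 1 or 3. In E79Q PSMA5 had 171, 182.6 and 175.3 CPM after radiation alone and 146, 142.5 and 136.2 with CB-839 as well, a log2 change of -0.32 (SE 0.055, adjusted p = 0.000134), and PSMD11 fell by 0.24 on the log2 scale. The 3 higher genes were PSME1 (0.37), PSMB8 (0.33) and PSME2 (0.25), and the largest falls were those of PSMA3 (-0.47) and PSMC6 (-0.41). PSMA4 (-0.36), PSMD11, PSME1 and PSME2 were called in every alternative, and the other 12, PSMA5 among them, lost their call in at least 1. The genotypes differed in this effect for 0 genes by edgeR, beside 1.91% of all genes, for 1 by DESeq2 and 1 by limma-voom, with 12 at an unadjusted p under 0.05.

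**Figure D4:**
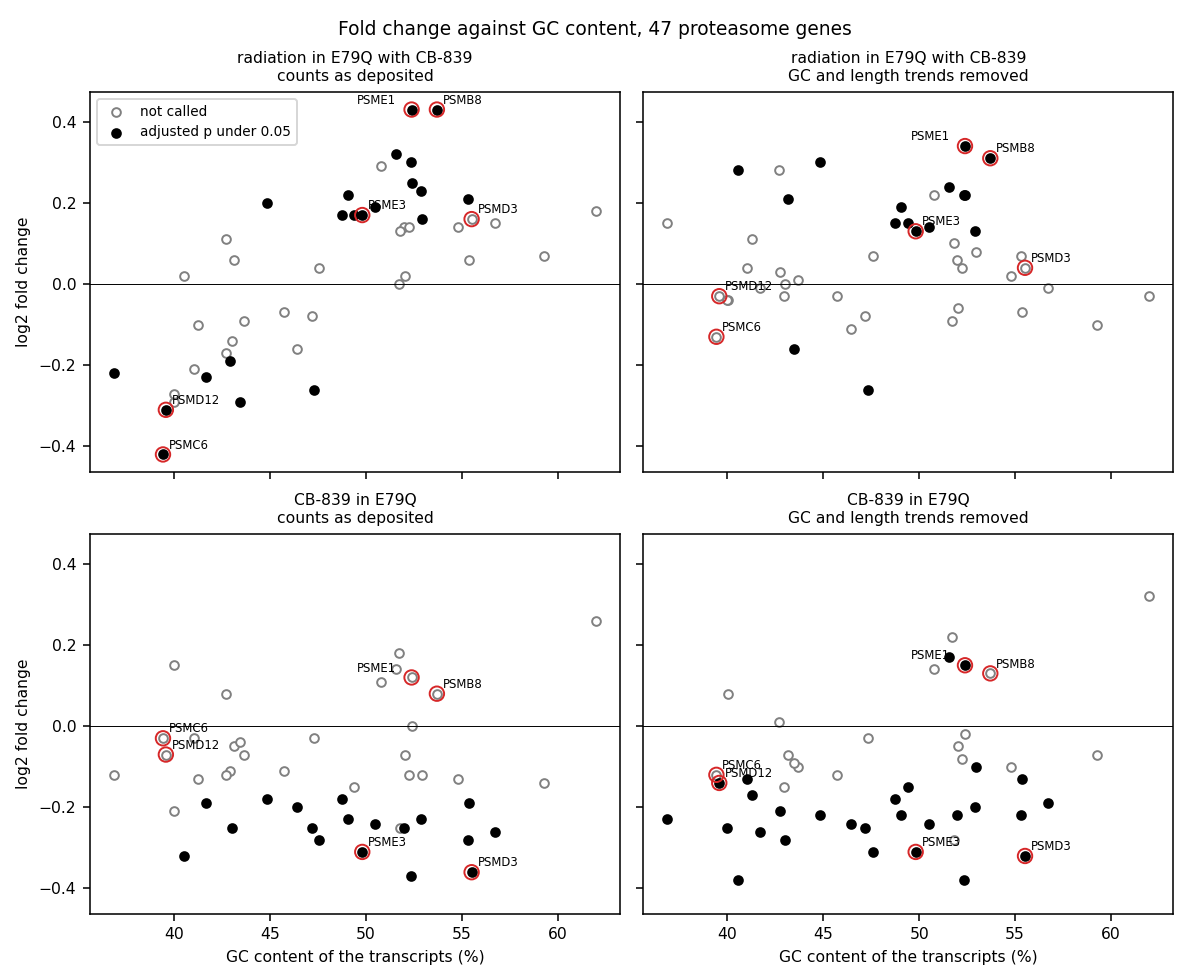
Log2 fold change of the 47 genes against the GC content of their transcripts, from the counts as deposited (left) and with GC and length trends removed (right). The top row is radiation in E79Q with CB-839 and the bottom row CB-839 in unirradiated E79Q. Filled points have an adjusted p under 0.05 and red rings mark the labelled genes. At top left low-GC genes such as PSMC6 (-0.42) lie below 0 and PSME1 and PSMB8 (0.43) above, a slope that is gone at top right, while at bottom left the values show no slope and stay mostly below 0.

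The interferon-inducible genes are PSMB8, PSMB9 and PSMB10 of the immunoproteasome and PSME1 and PSME2 of the PA28 cap. PSMB8 had 41.7, 36.2 and 37.6 CPM in untreated WT, 31.4, 33.6 and 36.4 with CB-839, 47.4, 43.9 and 45 with RT, and 48.5, 47.5 and 40.7 with both. In E79Q it had 35.2, 31.4 and 34, then 37.9, 33.8 and 35 with CB-839, 36.4, 40.1 and 37.7 with RT, and 43.1, 54.9 and 45.6 with both. Radiation in the presence of CB-839 raised PSMB8 by 0.43 in WT (SE 0.087, adjusted p = 0.000588) and by 0.43 in E79Q (SE 0.087, adjusted p = 0.000578), with no overlap in either. Without the drug its values were 0.24 and 0.18, and neither passed the test (adjusted p = 0.0547 and 0.143). With GC and length trends removed both were called, at 0.25 in WT and 0.21 in E79Q (adjusted p = 0.00429 and 0.0177, edgeR).

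PSMB9 rose with radiation in WT with CB-839 from 10.1, 10.5 and 11.2 CPM to 17.1, 15.4 and 16.7, a log2 change of 0.63 (SE 0.13, adjusted p = 0.000615), which held in every alternative. The irradiated level was close to that of untreated WT, whose mean was 16.3 CPM. In the other radiation comparisons PSMB9 had values of 0.12 in WT, 0.14 in E79Q and 0.29 in E79Q with CB-839, none past the test. PSMB10, counted at 52 to 138 reads per library, was called once, in WT with CB-839 (0.47, adjusted p = 0.0443), and lost that call on leaving out any of 5 of the 6 libraries and with GC and length trends removed (adjusted p = 0.11).

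In untreated cells PSME2 differed between the genotypes by 0.04 on the log2 scale and did not pass the test (adjusted p = 0.741, edgeR). PSME2 was higher with radiation in all 4 settings, by 0.26 in WT, 0.21 in E79Q, 0.21 in WT with CB-839 and 0.32 in E79Q with CB-839. PSME1 was called with radiation in the presence of CB-839, by 0.22 in WT and 0.43 in E79Q. In E79Q its libraries went from 102.8, 96 and 89.9 CPM with CB-839 to 118.4, 146.4 and 123.7 with both treatments (SE 0.07, adjusted p = 5.44e-05). The highest of these, replicate 2, is the library that followed GC content most. In a fit without the 4 such libraries the call held, as it did with GC and length trends removed. The former fit kept replicates 1 and 3 of this group, whose correlations with GC content were -0.39 and -0.17. In WT the PSME1 call was lost without WT with CB-839 replicate 1 or 2 or WT with RT and CB-839 replicate 1.

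Of the constitutive partners PSMB5, PSMB6 and PSMB7, PSMB5 was called in 4 of the 16 comparisons: in untreated E79Q (0.25), with CB-839 in E79Q (-0.23), with radiation in E79Q with CB-839 (0.23) and in the genotype difference of the CB-839 effect (-0.34). PSMB7 was called with CB-839 in E79Q (-0.18) and with radiation in E79Q with CB-839 (0.17), and PSMB6 in none of the 16, with values from -0.13 to 0.16. Set as a share of the pair per kilobase of exon, PSMB8 made up 9.94% ± 0.546 of PSMB8 and PSMB5 in untreated WT and 7.51% ± 0.0681 in untreated E79Q (SD, n = 3). With RT it was 10.8% ± 0.306 in WT and 8.67% ± 0.441 in E79Q, and with both treatments 10.4% in each. PSMB9 made up 4.74% ± 0.272 of PSMB9 and PSMB6 in untreated WT and 2.84% ± 0.379 in untreated E79Q. PSMB10's share of PSMB10 and PSMB7 ran from 1.61% in untreated E79Q to 2.68% in WT with both treatments. The shares were not tested, and they compare transcripts, not assembled subunits. They also depend on the annotated exon lengths, such as 3072 bp for PSMB9 and 1448 bp for PSMB6.

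**Figure D5:**
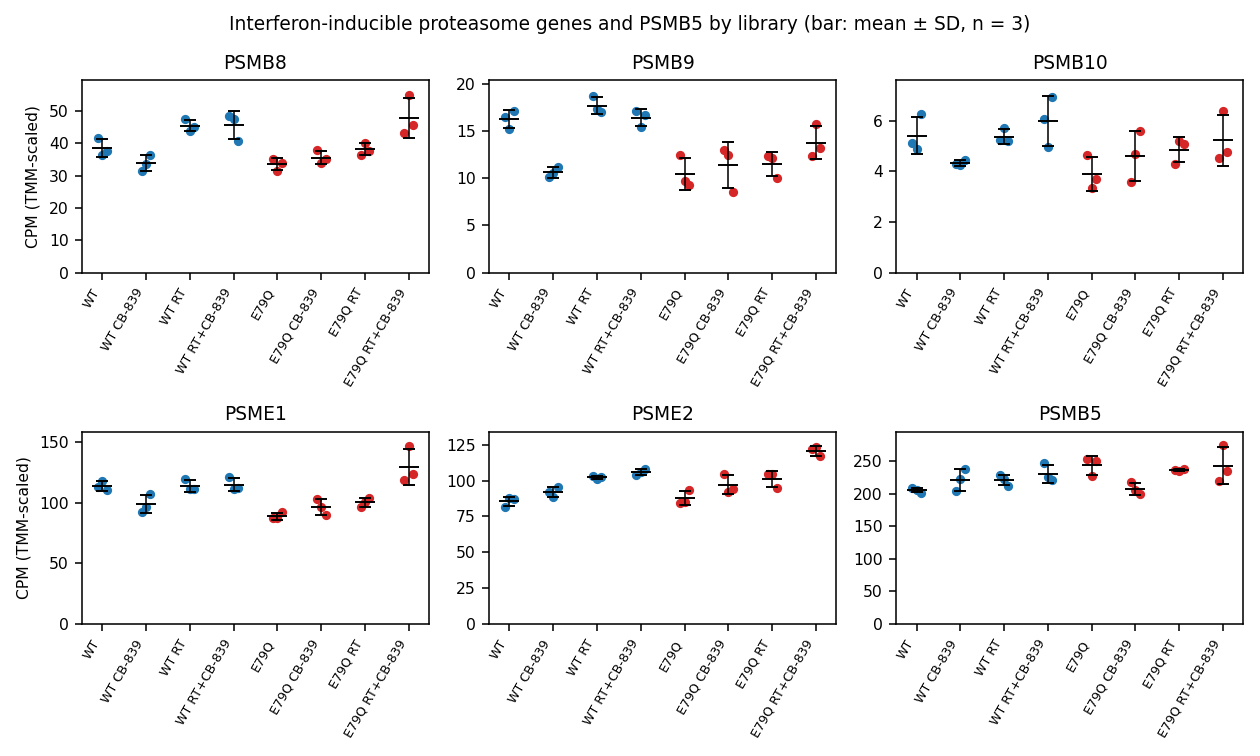
CPM of PSMB8, PSMB9, PSMB10, PSME1, PSME2 and PSMB5 in each library by group (blue, WT; red, E79Q; bars, mean and SD, n = 3; each axis starts at 0). PSMB9 is at 16.3 in untreated WT and near 10.6 in WT with CB-839 and 10.4 in untreated E79Q, and PSME2 is higher in each irradiated group than in its unirradiated counterpart.

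Leukocytes carry much immunoproteasome, and the summed level of 7 leukocyte markers also differed between groups. It ran from 12.8 to 14.8 CPM in untreated WT, 8.27 to 8.96 in untreated E79Q, 10.5 to 12.9 in WT with CB-839 and 10.9 to 14.7 in E79Q with CB-839. It ran from 15.7 to 17.9 CPM in WT with RT, 12.6 to 13.9 in E79Q with RT, 16.8 to 20.6 in WT with both treatments and 18 to 23.7 in E79Q with both. Most of it was CD74, an interferon-inducible chaperone that epithelial lines can express, at 7.13 to 22.9 CPM. CD14, a monocyte marker, had reads in all 24 libraries, from 0.197 to 3.51 CPM, and ITGAM was at 0 in 5 and at most 0.69 CPM. LYZ was at 0 in 20 libraries and at most 0.07 CPM, CD3E at 0 in 23 and at most 0.0531, and PTPRC, found on leukocytes in general, at 0 in 22 and at most 0.0607. The marker sum reached its highest value in E79Q with both treatments, where PSMB8, PSME1 and PSME2 also had their highest group mean. PSMB9 was highest in WT with RT (17.7 CPM, beside 13.7 in E79Q with both) and PSMB10 in WT with both treatments. Any part of leukocytes in the values of the inducible genes was not tested.

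Among 9 partners and inducers of the immunoproteasome in class I antigen processing, 4 were lower in untreated E79Q and 0 higher (beside 10.1% and 9.62% of all genes), with a median log2 fold change of -0.22. They include IRF1, an interferon-induced transcription factor, which stood at 40.3 CPM in WT and 24.4 in E79Q, a log2 change of -0.72 (SE 0.088, adjusted p = 5.39e-07), and TAPBP (tapasin), with -0.24. With CB-839 in WT 3 of the 9 fell (beside 8.44% of all genes), IRF1 by 0.70, TAPBP by 0.43 and ERAP1 by 0.22 on the log2 scale. The direct test of the genotype difference in the effect of CB-839 gave 0.46 for IRF1, 0.46 for TAPBP and 0.64 for ERAP1, an enzyme that trims peptides, with 4 of 9 called, all positive (beside 7.46% of all genes). With CB-839 in E79Q 3 were higher and 1 lower (beside 9.44% and 10.4%). Radiation raised B2M, the light chain of class I molecules, in all 4 settings, by 0.37 in WT, 0.41 in E79Q, 0.42 in WT with CB-839 and 0.35 in E79Q with CB-839.

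Of 17 other genes that work with the proteasome, 2 were higher in untreated E79Q, a share near the 9.62% of all genes called higher: ADRM1, a ubiquitin receptor of the 19S cap, from 166.4 to 218.1 CPM (log2 fold change 0.39, SE 0.072, adjusted p = 0.000229), and ZFAND2A by 0.54. With CB-839 in E79Q 5 of the 17 fell (beside 10.4% of all genes), among them TXNL1, a thioredoxin-like protein bound to the 19S cap, by 0.23 on the log2 scale. ADRM1 differed between the genotypes in the effect of CB-839 by -0.42 (SE 0.1, adjusted p = 0.00595).

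Of 7 regulators of proteasome genes, NFE2L1 was not called in the untreated genotypes or with CB-839 alone. NFE2L1 rose with radiation by 0.15 in WT, 0.21 in WT with CB-839 and 0.26 in E79Q with CB-839. NFE2L2 itself stood at 168.5 CPM in untreated WT and 134.5 in untreated E79Q (log2 fold change -0.33, adjusted p = 0.000496). Counts per gene do not show which allele the reads came from, so they do not check the E79Q label. VCP, which pulls proteins out of complexes before they are degraded, was higher in untreated E79Q by 0.17 and fell with CB-839 in E79Q by 0.31 on the log2 scale, from 542.8 to 438.9 CPM.

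Of 6 ubiquitin and ubiquitin-activating genes, 2 fell with CB-839 in E79Q (beside 10.4% of all genes), among them UBA1, the main ubiquitin-activating enzyme, by 0.16 on the log2 scale. With radiation in E79Q with CB-839 3 of the 6 were higher and 1 lower (beside 15.3% and 13.9%). UBA6, another ubiquitin-activating enzyme, fell by 0.49 on the same scale, while UBA1 rose by 0.23.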

How the data were processed

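RNA sequencing of 24 libraries in 8 groups of 3 was deposited as 1 table of raw counts per gene. Per the submitters' processing notes STAR, HTSeq and the build GRCh38 were used, with versions, annotation and strand setting not given in the sources used here. Every gene ID, start and end of the deposited count table equalled GENCODE 29 (58735 of 58735). The last columns carry shortened names, which each matched 1 group and replicate of the labels.

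Counts were fitted in R 4.3.3 with edgeR 4.0.16: genes kept by filterByExpr, TMM scaling, 1 mean per group over all 24 libraries, glmQLFit and glmQLFTest, 16 residual degrees of freedom, Benjamini-Hochberg adjustment over 15956 genes and a threshold of 0.05. The common biological coefficient of variation was 7.19%. There were 12 comparisons of groups and 4 differences between genotypes. CPM per kb uses the deposited gene length. Alternatives were DESeq2 1.42.0, limma-voom (limma 3.58.1), RLE scaling, no filter, the compared groups alone, a replicate block, each library left out, the 4 libraries that followed GC content left out and, chosen after seeing the data, offsets that remove each library's lowess trend (span 30%) with GC content and length. The scripts were tested on simulated data. Same-numbered libraries did not deviate together (84 pairs, correlations from -0.18 to 0.09), so the numbers were not used as pairs.

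The genes, the other lists and the 4 left-out libraries were chosen with earlier results of these data known. Full statistics go to up to 6 changed genes each way with the largest fold change and to PSMB5 to PSMB10 of the 3 catalytic pairs. For the other lists at most 3 genes each, those with the smallest p, are named. Values outside that rule were chosen after they were seen. Some genes of these lists are not reported here by name.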

Additional observations from a re-analysis of the deposited data

Results flagged for a closer look

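The effect of CB-839 in unirradiated cells differed between E79Q and WT for 16 genes by edgeR's interaction test, each with an adjusted p under 0.05 (n = 3 per group). The log2 difference, E79Q effect minus WT effect, was -0.51 for PSME3, -0.41 for PSMD3, -0.36 for PSMC1, -0.36 for PSMC3, -0.34 for PSMA5, -0.34 for PSMC4 and -0.34 for PSMB5. It was -0.33 for PSMD11, -0.32 for PSMG1, -0.32 for PSMD2, -0.30 for PSMD8, -0.29 for PSMD5, -0.29 for PSMD6 and -0.29 for PSMC5. It was 0.32 for PSME1 and 0.73 for PSMB9. The adjusted p of these ranged from 3.09e-05 (PSME3) to 0.0388 (PSMD6). These differences rest on the same 12 libraries, so the 16 genes are not independent observations.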

How the results depend on the processing

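Of 135 called values, 132 kept their call in DESeq2, 133 in limma-voom, 130 with RLE scaling, 121 with a replicate block, 110 with no filter, 115 without the 4 libraries that followed GC content, 115 with GC and length trends removed and 103 in fits of the compared groups alone. On leaving out 1 library, 681 of 906 kept it. Among 81 values of PSMB5 to PSMB10 that were not called, 29 changed sign in some alternative and 13 were called in one. PSMD14 reversed with trends removed, to 0.15 for radiation in E79Q with CB-839 and 0.06 for CB-839 in irradiated E79Q. The cause of changes was not tested. Counts that moved by more than 1.5 times follow. E79Q over WT untreated (15) gave 23 in the compared groups alone, 27 without the 4 libraries and 26 with trends removed; with CB-839 (3) it gave 6 in DESeq2 and 12 with trends removed; irradiated (4) it gave 17 in the compared groups alone, 14 without the 4 libraries and 10 with trends removed. With both treatments (1) it gave 0 with RLE scaling, no filter, a replicate block, the compared groups alone and without the 4 libraries, and 2 with trends removed. Radiation in WT (4) gave 7 in the compared groups alone. Radiation in E79Q (9) gave 5 with no filter and 15 both in the compared groups alone and with trends removed, and with CB-839 (21) 3 in the compared groups alone and 12 without the 4 libraries. CB-839 in WT (8) gave 13 in the compared groups alone, 16 without the 4 libraries and 15 with trends removed, and in E79Q (18) 28 with trends removed. In irradiated WT (3) it gave 5 in the compared groups alone and 6 without the 4 libraries, and in irradiated E79Q (16) 5 in the compared groups alone. The genotype difference in the radiation effect without drug (0) gave 4 in the compared groups alone, 2 without the 4 libraries and 3 with trends removed. That in the CB-839 effect gave 25 with trends removed (16), and in irradiated cells (0) 1 with no filter, 1 in DESeq2, 1 in limma-voom, 3 without the 4 libraries and 4 with trends removed. The replicate block moved the count over 1.5 times only for E79Q over WT with both treatments, to 0, and 4 of 24 libraries correlated best with their own number. Leaving out 1 library gave 11 to 14 for E79Q over WT untreated, 2 to 5 with CB-839, 2 to 3 irradiated and 0 to 3 with both. It gave 3 to 5 for radiation in WT, 5 to 8 in E79Q, 6 to 16 in WT with CB-839 and 9 to 29 in E79Q with CB-839. For CB-839 it gave 3 to 7 in WT, 11 to 17 in E79Q, 1 to 4 in irradiated WT and 11 to 18 in irradiated E79Q. The genotype differences gave 0 and 0 for radiation, 13 to 17 for CB-839 and 0 to 2 for CB-839 in irradiated cells. Depth limits PSMA2, PSMA6 and PSMB10, at 48 to 115, 63 to 115 and 52 to 138 counts per library.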
